A study of Homo sapiens with 22 samples.

Results

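The 611 regions described here carried histone H3 trimethylated at lysine 4 (H3K4me3) away from any annotated transcription start site (TSS) in TC-32, an established Ewing sarcoma cell line. They were chosen from the measured peak lists. The 4 H3K4me3 lists were merged wherever peaks shared at least 1 bp on chromosomes 1 to 22 and X, which gave 20727 regions. Of these, 12984 were in all 4 lists, 613 of those had no GENCODE v44 transcript start inside or within 2 kb of either edge, and 611 were also under 8 kb wide. The TSS-distant regions thus made up 2.95% of all merged regions and 4.71% of those in all 4 lists. The comparator was the 12022 regions in all 4 lists, under 8 kb, with a start inside or within 2 kb, here called TSS-near.

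Cells received 20 nM siRNA, either a negative control (siNEG) or one directed at FLI1 (siFLI1) that served to deplete EWSR1::FLI1, the fusion transcription factor of Ewing sarcoma. All groups are 1 cell line, and no label says whether replicates came from separate transfections, so p-values measure only the spread between these libraries. Each arm had 2 libraries for H3K4me3, 2 for H3K27ac (acetylation of lysine 27 on the same histone) and 2 for the transcription factor ETS1, and 1 further H3K27ac library labelled ab4729. The antibody label of that library also carries the identifier of the antibody used for the other H3K27ac libraries, so which of them made it cannot be told, and its replicate label (1a) does not say whether it shares a culture with replicate 1. The deposited files were peak lists, 1 per immunoprecipitated library, with no read counts, so the depth of each library is unknown, and the depletion itself was not checked here.

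H3K4me3 is deposited by SET1 and MLL enzyme complexes and is best known from active promoters, where CpG-rich sequence helps to recruit them. H3K27ac, written by the acetyltransferases p300 and CBP, marks active promoters and enhancers. tRNA genes are transcribed by RNA polymerase III from promoter boxes inside the gene, and nucleosomes beside active tRNA genes can carry H3K4me3. In Ewing sarcoma EWSR1::FLI1 binds repeats of the sequence GGAA and is known to turn such repeats into enhancers.

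The H3K4me3 lists held 18914 and 19720 peaks (siNEG) and 18344 and 18423 peaks (siFLI1), and 88% and 89.1% of the peaks of replicate 1 overlapped a peak of replicate 2. The H3K27ac lists held 60027 and 60401 (siNEG) and 65501 and 61481 peaks (siFLI1), with 66% and 69.2% shared. Of the H3K4me3 regions in all 4 lists, 95.3% had a TSS inside or within 2 kb, the placement known for this mark. The peak names inside the ETS1 list of siFLI1 replicate 1 carry the replicate number 2. Of its 1633 peaks, 93.4% overlapped the list of replicate 2, compared with 43.7% between the siNEG ETS1 lists. These shares depend on list length, and replicate 2 was the longer list in siFLI1 (2635 peaks) but the shorter in siNEG (208 beside 302). Because of the peak names, the siFLI1 ETS1 lists are treated as 1 library below, as a precaution.

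The sequences printed here show CpG content at the summit and the tRNA genes inside the regions. The window of 100 bases on each side of the H3K4me3 summit of a region 18034 bp from GADD45B, a stress-inducible gene (hg38, plus strand, chr19:2494936-2495136), holds 19 CpG dinucleotides, in capitals. A RefSeq start of the unnamed gene model LOC124904614 lies inside this region.
GADD45B region: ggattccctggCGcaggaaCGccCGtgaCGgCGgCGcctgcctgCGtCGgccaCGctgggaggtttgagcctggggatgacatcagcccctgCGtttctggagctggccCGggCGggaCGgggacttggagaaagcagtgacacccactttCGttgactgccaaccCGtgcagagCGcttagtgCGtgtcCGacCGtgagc
In contrast, the window in an intron of the homeobox gene HOXB7 (hg38, plus strand, chr17:48618848-48619048) holds 6.
HOXB7 region: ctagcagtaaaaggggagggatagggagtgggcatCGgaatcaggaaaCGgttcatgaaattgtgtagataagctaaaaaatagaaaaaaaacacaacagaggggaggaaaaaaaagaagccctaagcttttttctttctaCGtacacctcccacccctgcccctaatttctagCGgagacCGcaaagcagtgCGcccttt

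The tRNA genes below lie in 2 regions of chromosome 6 that were among the 10 highest-ranked TSS-distant regions. Each is printed on the strand that carries the B box, the inner promoter element that the polymerase III factor TFIIIC binds, searched as GTTCGANNC and shown in capitals. They lie at chr6:28789770-28789841 (minus strand), chr6:28790722-28790794 (minus), chr6:27478812-27478893 (plus) and chr6:27479674-27479745 (plus) of hg38, with RefSeq names.
TRA-TGC1-1: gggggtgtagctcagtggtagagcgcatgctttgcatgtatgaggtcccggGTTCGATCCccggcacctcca
TRF-GAA1-1: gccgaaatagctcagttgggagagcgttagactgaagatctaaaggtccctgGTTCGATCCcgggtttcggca
TRS-AGA2-2: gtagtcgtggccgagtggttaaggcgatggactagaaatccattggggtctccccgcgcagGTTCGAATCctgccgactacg
TRD-GTC2-6: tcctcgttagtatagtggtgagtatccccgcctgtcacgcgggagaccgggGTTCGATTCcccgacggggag
The first pair shares 1 region without any H3K27ac peak, and the other pair shares a region with H3K27ac in all 4 lists.

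The regions had no GENCODE start by rule, but RefSeq, a separate annotation, placed genes in some of them. A RefSeq tRNA gene lay inside 70 regions (11.5%, exact 95% interval 9.04% to 14.3%), compared with 75 of the 12022 TSS-near regions. A RefSeq gene start lay inside 39 (6.38%) and within 2 kb of 51 (8.35%). The remaining 491 (80.4%) had neither. RefSeq starts on chromosome 8, which held 15 of the 611 regions, were not used here. Of the 39 regions with a RefSeq start inside, 32 had a LOC symbol, that is, a gene model without a name. The highest-ranked of the 39 held a start of HIP1, an endocytic adaptor, 24259 bp from the nearest GENCODE start of that gene. Thus the label away from annotated TSSs holds for GENCODE, and 482 regions were left when RefSeq starts and tRNA genes were also counted as starts.

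The TSS-distant regions were narrower than TSS-near ones. Their median width was 1209 bp (306 to 7877 bp), compared with 3618 bp (275 to 7998 bp). The widest lay 3458 bp from the nearest start of SLC7A11, which encodes the cystine transporter xCT, at chr4:138245807-138253683. Its deposited H3K4me3 folds, each a ratio over local background as the peak caller gave it, were 26.4 and 29.1 in siNEG and 19.1 and 20 in siFLI1. Comparisons of such folds between lists are descriptions only, because each fold belongs to its own list. Just past the width limit, regions of 9425 bp near LINC02334 and 8221 bp near HOOK1 were left out.

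The deposited folds of TSS-distant regions were in the lower part of each list. Their median percentile within the list was 38.8 and 41.3 in siNEG and 35.2 and 35.6 in siFLI1, and that of TSS-near regions was 66.2, 67.6, 65.2 and 65.4. The median folds were 8.88, 9, 9.47 and 9.86 for TSS-distant and 38.5, 40.8, 41.3 and 41.5 for TSS-near regions. Among TSS-distant regions, those with a tRNA gene were wider (median 2048 bp, compared with 1104 bp for the other 541) and stood higher in the lists, with median percentiles of 48.6, 51.4, 44.9 and 44.2. The order TSS-near, tRNA and all TSS-distant held in each of the 4 lists. These are the measurements the selection rests on, so no test applies to them.

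**Figure D1:**
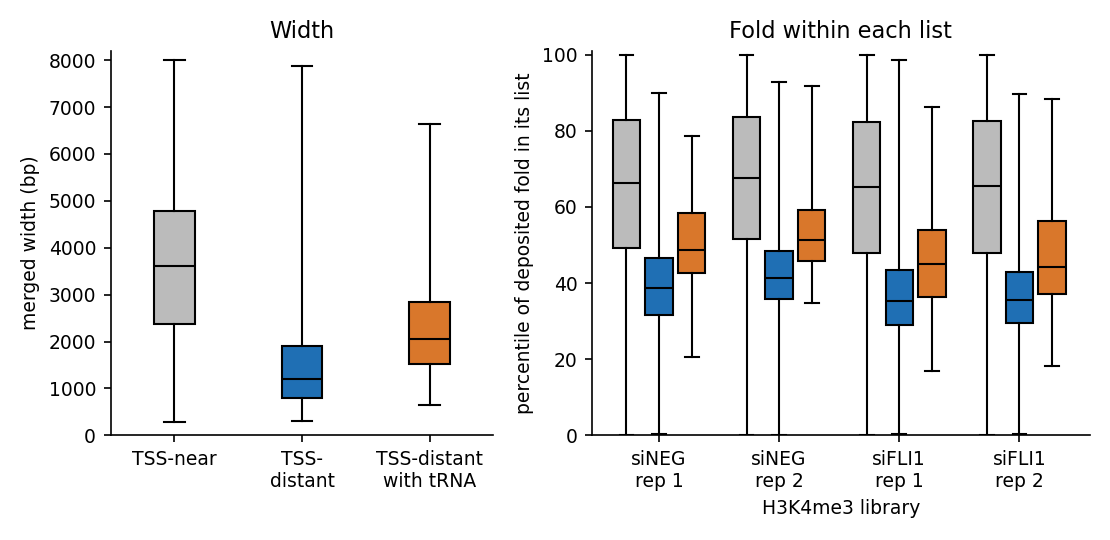
Left, merged width in bp of TSS-near (grey, 12022), TSS-distant (blue, 611) and tRNA-holding TSS-distant regions (orange, 70). Right, percentile of the deposited fold within each H3K4me3 list. Boxes give the quartiles and the median, whiskers the lowest and highest value. The blue medians, from 35.2 to 41.3, lie below the grey medians, from 65.2 to 67.6, in all 4 lists.

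Most TSS-distant regions lay between genes. By its centre, 354 regions (57.9%, exact 95% interval 53.9% to 61.9%) were intergenic, 208 (34%, 30.3% to 38%) intronic and 49 (8.02%, 5.99% to 10.5%) exonic. The centre lay in a protein-coding gene in 185 regions and in a long non-coding RNA gene in 78. The nearest start among protein-coding and long non-coding genes was that of a protein-coding gene for 356 regions (58.3%). The end of a protein-coding transcript lay inside 34 (5.56%). The median distance from region edge to the nearest start was 8564 bp, with 186 regions (30.4%) within 5 kb, 276 (45.2%) beyond 10 kb, 31 (5.07%) beyond 50 kb and 9 (1.47%) beyond 100 kb. The farthest, at chr4:45728607-45734180, lay 248577 bp from the nearest start, that of the small RNA pseudogene RNU6-931P, and 389874 bp from its nearest protein-coding gene, the GABA receptor subunit gene GABRG1, and had H3K27ac in all 4 lists.

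At the 2 kb limit the nearest regions inside the rule lay 2023 bp from a start (LINC02722), 2027 bp (the kinase gene LMTK3) and 2050 bp (ENSG00000268379). Just outside it were regions at 1996 bp (MSTO2P), 1993 bp (the transcription factor gene NFIA) and 1992 bp (the zinc finger gene ZNF584). In 98 of the 611 (16%), the edge was within 5 kb of a TSS-near H3K4me3 region, and the median distance to one was 25806 bp.

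Of the 70 tRNA regions, 43 were on chromosome 6, and they held 57 of the 102 tRNA genes inside TSS-distant regions. That chromosome has 155 of all 443 tRNA genes. It held 83 TSS-distant regions of any kind (13.6%), compared with 677 TSS-near ones (5.63%). Of the 43 tRNA regions there, 42 lay within chr6:26310968-28954583, a stretch with 51 TSS-distant regions in all, which spans the known tRNA gene cluster next to the replication-dependent histone genes. The other tRNA regions were on chromosomes 1 (7 regions), 17 (5), 16 (4), 11 and 12 (3 each), 2 (2), and 13, 14 and 15 (1 each). As a share of both kinds of region, TSS-distant ones were 10.9% on chromosome 6, 9.57% on chromosome 13 and 2.75% on chromosome 4.

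Together the 70 regions held 102 of the 443 RefSeq tRNA genes on chromosomes 1 to 22 and X (23%). A further 116 (26.2%) lay in TSS-near regions, 10 in other H3K4me3 regions found in all 4 lists, 6 in regions missing from at least 1 list, and 209 (47.2%) in none. By symbol, the genes in TSS-distant regions spread over alanine (TRA, 13 genes), serine (TRS, 11), leucine (TRL, 9), threonine (TRT, 9), arginine (TRR, 8) and proline (TRP, 7), with 45 genes of other kinds. There were 24 regions with more than 1 tRNA gene, and the most in a region was 4. The B box letters GTTCGANNC, on either strand, were in 74 of the 102 genes (72.5%) and in 271 of all 443 (61.2%). This motif was added after the tRNA genes had been seen. In the 300 bases around the H3K4me3 summit the same letters were in 2.78% of all TSS-distant, 1.6% of TSS-near regions and 0.829% of 34961 RefSeq promoter windows of that length. Among TSS-distant regions they were in 5 with a tRNA gene (7.14%) and in 12 without (2.22%).

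The H3K4me3 summit stood beside the tRNA gene, not on it. The distance from the summit to the centre of the nearest tRNA gene had a median of 310 bp and quartiles of 230 and 380 bp, over a range of 44 to 1918 bp. In 1 of the 70 regions it was within 100 bp.

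**Figure D2:**
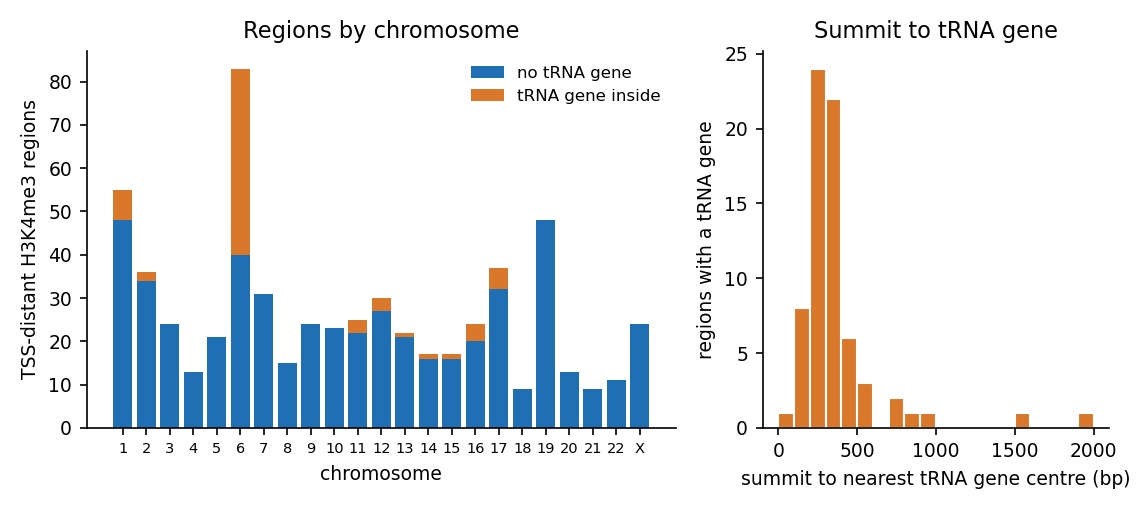
Left, number of TSS-distant H3K4me3 regions per chromosome, with those that hold a RefSeq tRNA gene in orange. Right, number of the 70 tRNA regions by distance in bp from the H3K4me3 summit to the centre of the nearest tRNA gene, in bins of 100 bp. Chromosome 6 holds 43 of the 70, and the distances cluster around the median of 310 bp.

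H3K27ac, which the choice of regions did not use, overlapped fewer TSS-distant than TSS-near regions in every library. A peak of H3K27ac shared at least 1 bp with 54.5% and 49.9% of TSS-distant regions in siNEG and with 54.7% and 51.2% in siFLI1. For TSS-near regions the shares were 73.5% and 67.9% in siNEG and 75.5% and 74.1% in siFLI1. The difference was -20.16 percentage points (SD 2.14, n = 4 libraries), lower in 4 of 4 libraries, with p = 0.125 in an exact two-sided sign-change permutation test, the smallest this design allows. With the same 500 bases around the summit searched in both kinds of region, so that width could not differ, the difference was -18.44 percentage points.

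Between the arms the H3K27ac share of TSS-distant regions differed by less than the spread between replicates. It was 52.2% ± 3.24 (SD, n = 2) in siNEG and 52.9% ± 2.43 in siFLI1, a difference of 0.736 percentage points with p = 0.67 (exact two-sided permutation test, smallest possible p 0.33). This sign was not stable: without siNEG replicate 2 the difference was -1.555, and without siFLI1 replicate 1 it was -0.982. TSS-near regions had 70.7% ± 3.98 and 74.8% ± 1.01, a difference of 4.07. The difference between these 2 arm differences was -3.331 percentage points (SD 1.14, n = 2 per arm, exact permutation p = 0.33, the smallest possible). In the ab4729 lists, with 1 library per arm and no test, the shares were 35.2% in siNEG and 44% in siFLI1 for TSS-distant regions and 61.2% and 68.9% for TSS-near ones. Those lists held 32738 and 51663 peaks, so their length moved with the arm, and the part of list length in that difference was not tested.

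**Figure D3:**
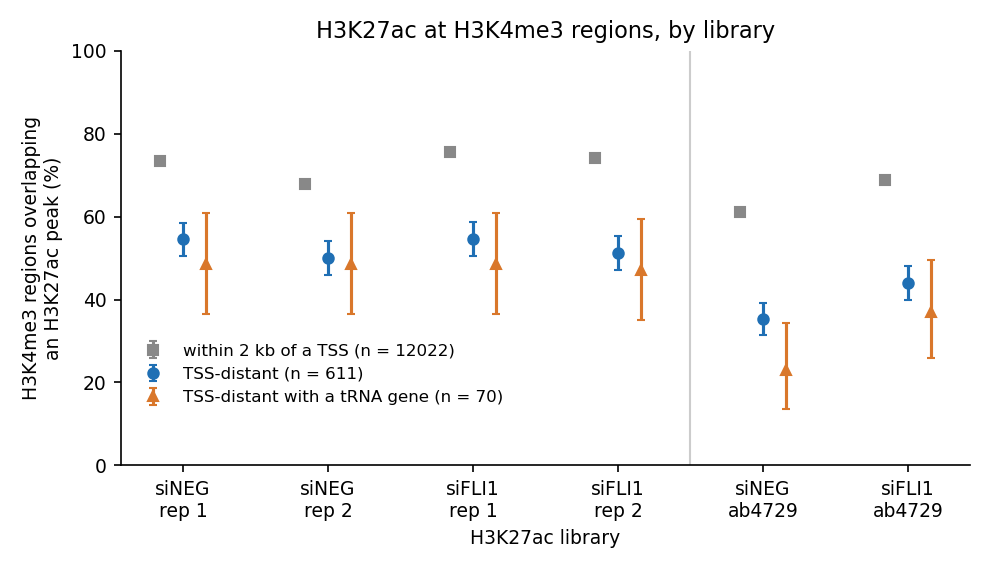
Share (%) of H3K4me3 regions that overlap an H3K27ac peak, per H3K27ac library, for TSS-near (grey squares), TSS-distant (blue circles) and tRNA-holding TSS-distant regions (orange triangles). Bars are exact 95% binomial intervals over regions, and for grey they are smaller than the symbol. The blue points lie between 35.2% and 54.7% and below the grey point in all 6 libraries.

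Region by region, H3K27ac was mostly either present or absent throughout. It was in all 4 lists at 264 TSS-distant regions (43.2%, exact 95% interval 39.2% to 47.2%), compared with 7675 TSS-near ones (63.8%). It was in none at 233 (38.1%, 34.3% to 42.1%), compared with 2374 (19.7%). H3K27ac in both siFLI1 lists but in no siNEG list was found at 15 regions (2.45%), beside 2.36% of all 12984 H3K4me3 regions. The opposite pattern was found at 13 regions (2.13%), beside 0.801% of all. The first share is near the background, and the other is above it, with an exact interval of 1.14% to 3.61%, which covers counting error only. Among these 13, 9 had no ab4729 peak in either arm and none had one in siNEG alone. The siNEG ab4729 list was the shorter, with 32738 peaks beside 51663 in siFLI1. The remaining 86 (14.1%) had other mixtures. With 1 list fewer to meet, the siFLI1-only count was 30 without siNEG replicate 1 and 27 without siFLI1 replicate 2, and the siNEG-only count was 26 without siNEG replicate 2 and 23 without siFLI1 replicate 1. Regions without H3K27ac had a median width of 966 bp, and those with it in all 4 lists 1502 bp, so a longer interval was searched in the latter.

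The ab4729 lists, which took no part in these classes but may share antibody or culture with them, followed them at the extremes. Both ab4729 lists held 183 of the 264 regions with H3K27ac in all 4 lists and 1 of the 233 with none. Of the 15 siFLI1-only regions, 9 had an ab4729 peak in siFLI1 alone, 2 in both arms, 1 in siNEG alone and 3 in neither. Peaks in siFLI1 alone also outnumbered those in siNEG alone in the other classes. The counts were 34 and 8 with H3K27ac in all 4 lists, 17 and 5 in other mixtures, and 7 and 0 with none. At siNEG-only regions they were 1 and 0. The siFLI1 ab4729 list was the longer, and the part of list length in these counts was not tested.

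Within the tRNA regions, H3K27ac differed with location. In the chromosome 6 cluster, 26 of 42 had no H3K27ac peak in any list and 9 had one in all 4. Elsewhere, 3 of 28 had none and 18 had one in all 4. Most TSS-distant regions without a tRNA gene in the same chromosome 6 stretch also had no H3K27ac peak in any list. The lack is thus not particular to the tRNA regions there. The split by location was chosen after the regions had been seen and has no test. Over all 70 the share was 48.6% ± 0 (SD, n = 2) in siNEG and 47.9% ± 1.01 in siFLI1. The 75 TSS-near regions with a tRNA gene had 77.3% ± 3.77 and 82.7% ± 5.66.

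**Figure D4:**
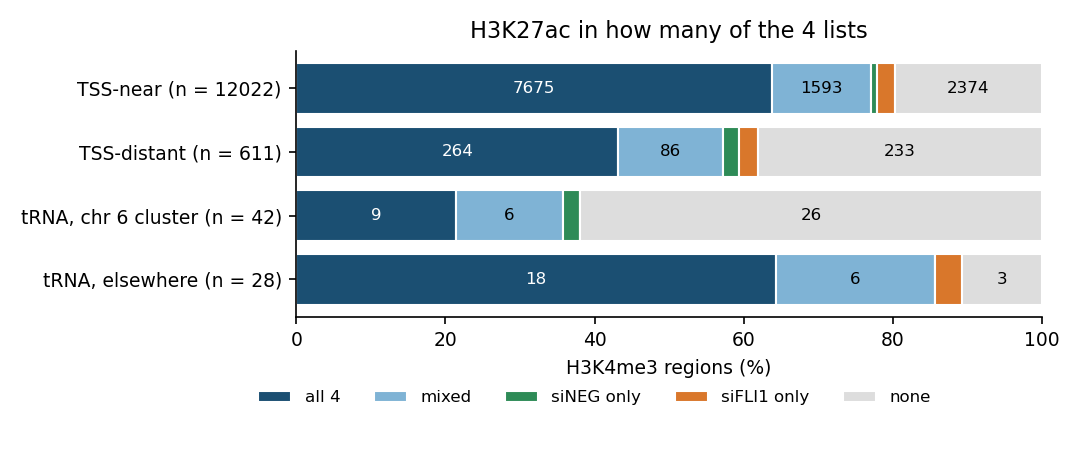
Share (%) of regions by the H3K27ac lists that overlap them: all 4, both lists of 1 arm only, none, or another mixture. Numbers inside the bars are regions, shown for classes above 4% of a bar. None of the lists covered 233 of 611 TSS-distant regions and 26 of the 42 tRNA regions in the chromosome 6 cluster, compared with 2374 of 12022 TSS-near regions.

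By position, the H3K27ac share in siNEG and siFLI1 was 57.7% ± 2.04 and 59.6% ± 2.72 (SD, n = 2) at intronic regions, 50.1% ± 4.19 and 49.9% ± 1.4 at intergenic ones, and 43.9% ± 1.44 and 46.9% ± 8.66 at exonic ones. CpG-rich regions had 47% ± 2.53 and 49.4% ± 2.1, and the others 58.5% ± 4.11 and 57.3% ± 2.83. The arm differences of these subsets have no test, and 2 libraries against 2 could not pass 0.05.

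CpG-rich sequence was less frequent than at TSS-near regions. A GC content of at least 50% with at least 0.6 of the expected CpG over 500 bases around the summit was found at 336 TSS-distant regions (55%, exact 95% interval 50.9% to 59%), compared with 9867 TSS-near ones (82.1%, 81.4% to 82.8%). The median GC content was 58.8% and 66.6%. Of the tRNA regions 24 of 70 (34.3%) were CpG-rich, and of the others 312 of 541 (57.7%). The tRNA regions had a lower median GC content (48.1%, compared with 60.2%) at about the same observed over expected CpG (0.731 and 0.694). CpG-rich sequence was found in 129 of 264 regions with H3K27ac in all 4 lists (48.9%) and in 140 of 233 with none (60.1%).

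**Figure D5:**
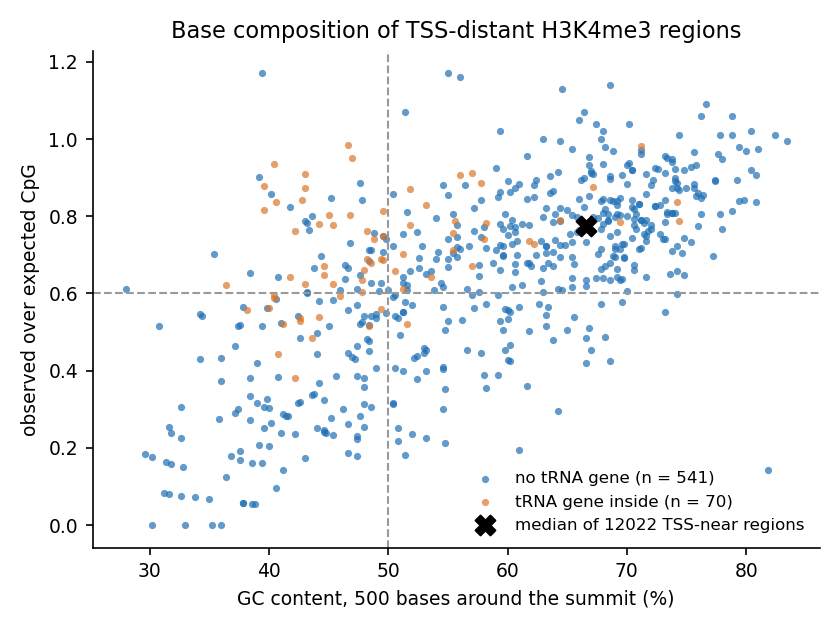
GC content (%) against observed over expected CpG in 500 bases around the H3K4me3 summit, 1 point per TSS-distant region, tRNA-holding ones in orange. Dashed lines are the limits for CpG-rich (50% and 0.6), and the black cross is the median of TSS-near regions. The upper right quadrant holds 336 of 611 regions, and many tRNA regions lie to its left.

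Motifs were counted on both strands in the 300 bases around the summit, with shares for TSS-distant regions, TSS-near regions and RefSeq promoters in that order. The ETS core CCGGAA was in 15.1%, 16.1% and 17.3%. The GC box GGGCGG was in 42.2%, 61.5% and 45%, and in 21.4% of tRNA regions. The AP-1 motif TGANTCA was in 6.71%, 2.73% and 7.68%. The CCAAT box was in 24.2%, 15.5% and 34.6%. The promoter windows start 250 bases before the gene start and are not centred on a summit, so those shares describe another position.

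The deposited folds did not overlap between the arms at a part of the regions. Of the 264 TSS-distant regions with H3K27ac in all 4 lists, 48 (18.2%) had a higher H3K27ac fold in both siNEG lists than in both siFLI1 lists, beside 10.4% of the 8284 H3K4me3 regions with such peaks. The opposite order was found at 65 (24.6%), beside 35.4%. For H3K4me3, the mark that chose the regions, the fold was higher in both siNEG lists at 122 of 611 (20%), beside 17.1% of all 12984, and in both siFLI1 lists at 189 (30.9%), beside 28.9%. Each fold belongs to its own list and has no scale shared between lists, so these are values of the lists and no change is read from them.

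Those of the 10 highest-ranked regions without a tRNA gene are described first. They stand high in every H3K4me3 list by the way they were picked. The first of them lay between genes, 6186 bp from the nearest start of GRIN1, which encodes a subunit of the NMDA glutamate receptor (chr9:137125489-137132160). There the deposited folds were 63.1 and 68 in siNEG and 91.6 and 58.5 in siFLI1, which overlap. Its H3K27ac folds were 6.77, 5.59, 8.65 and 5.79 in the same order. The region 3833 bp from GNG13, a G protein gamma subunit gene (chr16:804567-810286), had H3K4me3 folds of 47.7, 65.8, 55.3 and 67.5. An intronic region of RIN2, a Rab5 guanine nucleotide exchange factor gene (chr20:19973641-19979643), had folds of 42.6, 50.6, 51.7 and 65.5. Its H3K27ac folds were 10.2 and 8.46 in siNEG and 16.8 and 27.4 in siFLI1. A region 34640 bp from GLDC, the glycine cleavage gene, had H3K4me3 folds of 41.4, 51.4, 56.3 and 62.5 and H3K27ac folds of 29.3, 10.6, 21.6 and 22.8. A region in an intron of the non-coding gene ENSG00000286288 (chr20:1774397-1777545) had H3K4me3 folds of 46.1, 37.1, 39.9 and 49.2, but H3K27ac in the siFLI1 lists alone, at 3.62 and 4.68.

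The other 5 of the 10 highest-ranked regions held tRNA genes. TRA-TGC1-1 and TRF-GAA1-1 shared a region (chr6:28788588-28792050) with H3K4me3 folds of 44.1 and 62.1 in siNEG and 45.7 and 45.4 in siFLI1, and neither H3K27ac nor ab4729 had a peak there. TRS-AGA2-2 and TRD-GTC2-6 shared a region (chr6:27476903-27480548) with H3K4me3 folds of 34.7, 57.4, 51.6 and 50.6 and H3K27ac folds of 5.18, 6.95, 11.4 and 14.1. The proline tRNA genes TRP-CGG1-1 and TRP-AGG2-1 lay 3404 bp from MPZL1, a cell surface glycoprotein gene, in a region with H3K27ac folds of 12, 10.5, 8.28 and 6.26. TRP-AGG2-4 and TRP-TGG2-1 shared a region with H3K27ac folds of 5.3, 7.07, 4.63 and 6.62. The region of TRT-CGT4-1, 16628 bp from the endosomal trafficking gene RAB11FIP4, had H3K27ac folds of 19.8, 23.2, 19 and 17.7. All 5 were in the upper part of the H3K4me3 lists by the way they were picked, and H3K27ac was present at 4 of them.

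Of the 15 regions with H3K27ac in both siFLI1 lists alone, the first by H3K27ac rank lay 18034 bp from GADD45B (chr19:2494390-2495504), with H3K27ac folds of 9.15 and 8.89 and an ab4729 peak in siFLI1 alone at 5.62. Its H3K4me3 folds were 9.23, 7.84, 7.16 and 8.06, which overlap between the arms. The region at chr15:66842084-66843385, whose nearest protein-coding gene at 130387 bp is the inhibitory SMAD gene SMAD6 and which holds a RefSeq start (LOC105370869), had H3K27ac folds of 16.3 and 8.54 and an ab4729 fold of 11.1 in siFLI1. Its H3K4me3 folds were 6.49 and 10.3 in siNEG and 21.1 and 17.9 in siFLI1, without overlap. An intronic region of SLC47A1, an organic cation exporter gene, held the tryptophan tRNA gene TRW-CCA2-1 and had H3K27ac folds of 9.35 and 8.27. There the H3K4me3 folds were 37.2 and 33.7 in siNEG and 63.4 and 61.7 in siFLI1, again without overlap.

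Further siFLI1-only regions lay in introns of INSR, the insulin receptor gene (H3K27ac folds 8.39 and 7.35), and of CDK6, a cell cycle kinase gene (7.28 and 5.04). The CDK6 region had an ab4729 peak in both arms, at 4.87 in siNEG and 11.1 in siFLI1. The region 4206 bp from SOX4, a developmental transcription factor gene (chr6:21587230-21589545), had H3K27ac folds of 4.92 and 6.47. It also had an ETS1 peak in both siFLI1 lists (5.18 and 6.52) and in neither siNEG list. Others had as nearest protein-coding gene the interferon-inducible IFI6 (8.56 and 5.95), the growth cone protein gene GAP43 at 110140 bp (6.85 and 5.35), the deubiquitinase gene USP22 at 151871 bp (4.25 and 4.83) and ZNF704 at 61111 bp (5.28 and 4.25).

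The 13 regions with H3K27ac in both siNEG lists alone were led by the intronic HOXB7 region (chr17:48618801-48619620), with H3K27ac folds of 8.93 and 5.91 and H3K4me3 folds of 2.46, 3.47, 3.21 and 4.65. In siNEG replicate 1 that H3K4me3 fold was near the bottom of the list (percentile 0.286). A region 11836 bp from FOCAD, the focadhesin gene (chr9:20643826-20646473), had H3K27ac folds of 8.25 and 5.45. Its H3K4me3 folds were 9.97 and 8.07 in siNEG and 5.65 and 4.89 in siFLI1, without overlap. An intron of HPD, a tyrosine breakdown enzyme gene, had H3K27ac folds of 6.75 and 5.14, but ab4729 peaks of 4.64 in siNEG and 4.88 in siFLI1. Similarly, regions with ACBD3, a Golgi protein gene and PLEKHG6 as nearest protein-coding genes had ab4729 peaks in both arms. An exonic region of DLX2-DT, beside the homeobox gene DLX2, had H3K27ac folds of 3.17 and 3.39 in siNEG, and an ab4729 peak in siFLI1 alone, at 5.92. The LMTK3 region, at 2027 bp from its start the closest of the 13 to a TSS, had H3K27ac folds of 3.75 and 4. When regions had to lie over 5 kb from any TSS, the count of 13 fell to 6.

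ETS1 was found at few TSS-distant regions. The ETS1 lists held 302 and 208 peaks in siNEG and 1633 and 2635 in siFLI1, so shares move with list length. An ETS1 peak overlapped 0.982% and 0.818% of TSS-distant regions in siNEG and 3.76% and 6.71% in siFLI1, compared with 2.04%, 1.29%, 10.9% and 16.3% of TSS-near ones. ETS1 in both siFLI1 lists and neither siNEG list was found at 12 TSS-distant regions (1.96%), beside 8.09% of all H3K4me3 regions in all 4 lists. Any ETS1 list held 44 of them (7.2%), and no tRNA region was among these. The siFLI1 lists being treated as 1 library, this comparison has no test.

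Both siFLI1 ETS1 lists covered 20 TSS-distant regions (3.27%), compared with 1233 TSS-near ones (10.3%). Of the 20, 14 were CpG-rich, beside 55% of all TSS-distant regions, and 11 had H3K27ac in all 4 lists, beside 43.2%. On chromosome 19 lay 7 of them, beside 48 of the 611, and 8 were also in a siNEG ETS1 list. The first of them by ETS1 rank (chr17:21098577-21100190), 14093 bp from LINC01563, had ETS1 folds of 27.9 and 24.8 in siNEG and 15.5 and 24.5 in siFLI1. The region 4074 bp from GDF11, a TGF-beta family ligand gene (chr12:55737444-55739048), had ETS1 folds of 6.13, 10, 10.3 and 12.6. Both were thus held by all 4 ETS1 lists. The 50 bases on each side of the ETS1 summit of the GDF11 region (hg38, plus strand, chr12:55738337-55738437), 373 bp from its H3K4me3 summit, hold 1 CCGGAA, in capitals, and they are shown because the same window of the other 7 named ETS1 regions holds none.
GDF11 region: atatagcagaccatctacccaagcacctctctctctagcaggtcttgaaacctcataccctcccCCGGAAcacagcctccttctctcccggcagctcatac
A region 4414 bp from MIR23AHG, a microRNA host gene, had ETS1 in the siFLI1 lists alone (8.13 and 8.5) and H3K27ac folds of 37.2, 20.9, 23.2 and 36.4. An intronic region of TLE2, a transcriptional corepressor gene, had ETS1 folds of 4.45 in siNEG replicate 1 and 8.79 and 13.9 in siFLI1. A region 22471 bp from CCNE1, the cyclin E1 gene, had ETS1 in the siFLI1 lists alone, at 7.2 and 8.15.

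Repeats of 4 or more consecutive GGAA units, or TTCC units on the other strand, lay within 1 kb of the centre of 9 TSS-distant regions (1.47%, exact 95% interval 0.676% to 2.78%) and of 28 TSS-near ones (0.233%, 0.155% to 0.336%). The 4 longest are printed with 20 bases on each side and the repeat in capitals (hg38, plus strand), because repeats of this kind are the known fusion binding sites. They lie at chr11:16906206-16906301, chr19:15470222-15470313, chr14:102525599-102525690 and chr16:25020171-25020250.
PLEKHA7 region: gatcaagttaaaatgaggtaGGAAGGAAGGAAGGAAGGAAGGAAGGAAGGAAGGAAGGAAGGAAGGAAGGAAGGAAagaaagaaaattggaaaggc
RASAL3 region: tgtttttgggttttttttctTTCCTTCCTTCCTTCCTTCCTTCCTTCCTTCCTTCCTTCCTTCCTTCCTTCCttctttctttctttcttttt
ANKRD9 region: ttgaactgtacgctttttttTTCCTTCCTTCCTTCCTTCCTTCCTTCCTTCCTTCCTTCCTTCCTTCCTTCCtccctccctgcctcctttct
ARHGAP17 region: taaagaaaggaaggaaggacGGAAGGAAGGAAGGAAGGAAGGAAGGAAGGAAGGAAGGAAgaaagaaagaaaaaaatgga
They hold 14, 13, 13 and 10 units. The ANKRD9 repeat lies just past the end of its region, and the others printed lie inside theirs. The H3K27ac lists covered all 4 regions in both arms. In an intron of PLEKHA7, an adherens junction gene (chr11:16905367-16907729), the H3K27ac folds were 22.5 and 14.9 in siNEG and 6.36 and 10.5 in siFLI1, and the H3K4me3 folds 21.5, 22.4, 14.5 and 13.5. The neighbouring region 2557 bp from the PLEKHA7 start had H3K4me3 folds of 30.4 and 38 in siNEG and 10.5 and 14.7 in siFLI1. At these regions the H3K4me3 folds were higher in the siNEG lists, without overlap, as at 20% of TSS-distant regions and 17.1% of all. The third PLEKHA7 region, 11180 bp from its start, had no H3K27ac peak and H3K4me3 folds of 8.58 and 6.67 in siNEG and 8.99 and 8.21 in siFLI1, which overlap.

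At the RASAL3 region, a Ras GTPase activator gene being nearest (chr19:15468280-15470544), the H3K27ac folds were 13.1 and 5.54 in siNEG and 4.97 and 4.76 in siFLI1, and the H3K4me3 folds 28.6, 19.7, 14.7 and 13.3. At the ANKRD9 region (chr14:102524835-102525593), which lies 15 bp from a RefSeq gene start, the H3K27ac folds were 36.6, 19.9, 11.6 and 14.5, and at the ARHGAP17 region 18.4, 10.1, 9.55 and 6.83. At these 4 regions the H3K27ac folds were higher in both siNEG lists than in both siFLI1 lists. Among regions with H3K27ac in all 4 lists, this order held at 18.2% of TSS-distant and 10.4% of all H3K4me3 regions. The 4 were picked by repeat length after their values had been seen, so nothing is read from their number. The 5 regions with 4 units showed no such order in common: at the EEF2 region, near the elongation factor gene, the H3K27ac folds were 7.83, 13.9, 6.61 and 8.09, which overlap. At the RFC2 region, near a replication factor gene, no H3K27ac list held a peak. The repeats of the EEF2 and RFC2 regions also lie outside the regions themselves.

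With protein-coding and long non-coding genes as candidates for the nearest gene, 2 of 80 listed genes (2.5%) were nearest to a TSS-distant region, beside 1.68% of all 19962 GENCODE protein-coding genes, and 50 (62.5%) were nearest to a TSS-near one, beside 47.2%. With protein-coding genes alone as candidates, 4 listed genes (5%) were nearest to a TSS-distant region, beside 2.68%, and 62 (77.5%) to a TSS-near one, beside 53.3%. The further ones were VRK1, a kinase gene on the fusion-activated list, 275982 and 470223 bp from 2 regions, and ARID1A, a chromatin remodeller subunit gene, 55560 bp from 1. By the former definition none of the 12 fusion-activated genes, 10 fusion-lowered genes or 18 ETS family genes was nearest to a TSS-distant region, and 8, 4 and 14 of them were nearest to a TSS-near one. Of 20 neural crest and neural factors TFAP2B had one, 2413 bp away, with H3K4me3 folds of 6.37, 4.46, 3.8 and 10.1 and no H3K27ac peak. Of 20 chromatin regulators TET1, a DNA demethylase gene, had one. It lay in an intron 39206 bp from the nearest GENCODE start of TET1, with a RefSeq start of TET1 inside, and had H3K27ac folds of 9.54, 13.4, 21.1 and 12.2.

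With protein-coding genes alone as candidates, the nearest genes numbered 535, of which 490 had 1 region. Genes whose symbols start with ZNF were nearest to 33 regions (5.4%), compared with 490 TSS-near regions (4.08%). The genes with most regions were in the chromosome 6 tRNA cluster: ZNF184 had 10, all with a tRNA gene, TRIM27, a ubiquitin ligase gene, had 9 and SCAND3 had 8. All 9 TRIM27 and all 8 SCAND3 regions lacked H3K27ac in all lists.

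BCOR, which encodes a corepressor subunit of a Polycomb complex, had 4 intronic regions, 3903 to 11403 bp from its starts, each with H3K27ac in all 4 lists. A RefSeq start lay inside the first of them (LOC107985687). Their H3K4me3 folds in siNEG and siFLI1 ran from 21.3, 19.1, 17.5 and 18.3 at the strongest to 4.68, 4.71, 6.07 and 5.36 at the weakest. The first pair of them overlapped the same H3K27ac peak, so they are not independent for that mark. RAI1, a retinoic acid induced regulator gene, had 3 regions inside the gene, 11872 to 40695 bp from its starts, all with H3K27ac in all 4 lists, and the strongest of these H3K27ac peaks had folds of 33.9, 22.5, 30.4 and 35.7.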

How the data were processed

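ChIP-seq peak lists of 14 libraries, deposited by the authors in the 10-column layout that MACS2 writes, were the only input. The submitters' processing notes name cutadapt 4.4, BWA 0.7.17, Picard 2.17.11, MACS2 2.1.1 and the builds GRCh38, hg38 and dm6, with no role for dm6. Lists were deposited per library, and the control library is not given in the sources used here. The fold column is the authors' ratio of a peak over background, the −log10 columns are the authors' p-value and q-value, and the deposited score column was not used. Presence in a list depends on the depth and quality of a library as well as on the mark.

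Members, gene lists and tests were chosen with earlier results of these data known. Named regions were the 10 highest by lowest H3K4me3 fold percentile over the 4 lists, up to 10 per arm with H3K27ac in 1 arm alone, up to 8 with ETS1 in both siFLI1 lists, up to 8 with a GGAA repeat, those nearest to listed genes, and 3 on each side of the 2 kb limit. Regions with several per gene, RefSeq starts, tRNA genes and the ARHGAP17 repeat, and counts of folds without overlap, were added after the data had been seen. Sequences came from hg38, and tRNA genes and RefSeq starts from RefSeq tables of GRCh38.p14. The first planned summit window is not reported here. The summit windows planned for the ETS1 and repeat regions gave way to the ETS1 summit and the repeats. Shares were compared over libraries with exact permutation tests in Python 3.11.15 (numpy 2.4.6, pandas 2.3.3, pysam 0.24.0), after the region functions had been tested on simulated lists. Intervals are exact (Clopper-Pearson) 95% binomial intervals and cover counting error only.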

Additional observations from a re-analysis of the deposited data

How the results depend on the processing

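Most alternative settings were applied to several results, so the 79 alternative values counted here are not independent. Of these, 10 came from settings chosen after seeing the data. In 70 the direction of a difference was kept or a count stayed within 1.5 times of its value. In 5 a count moved further, in 1 (the ab4729 lists, with no test) a difference kept its direction and moved by more than the replicate spread, and 3 reversed a difference. The number of TSS-distant regions ran from 425 (over 5 kb from a TSS) to 733 (over 1 kb), and from 685 to 709 when a region had to be in 3 lists, each list left out in turn. The TSS-distant minus TSS-near difference in H3K27ac share lay between -25.11 and -18.44 percentage points under all alternatives run. The arm difference at TSS-distant regions ran from -1.555 to 3.028 percentage points as each H3K27ac library was left out, negative without siNEG replicate 2 (-1.555) or siFLI1 replicate 1 (-0.982). With the ab4729 lists it was 8.838, and its difference from TSS-near regions turned from -3.331 to 1.11. As each H3K27ac library was left out, the siFLI1-only count ran from 19 to 30 (30 without siNEG replicate 1, 27 without siFLI1 replicate 2) and the siNEG-only count from 16 to 26 (26 without siNEG replicate 2, 23 without siFLI1 replicate 1), since fewer lists had to lack or hold a peak. Over 5 kb from a TSS the siFLI1-only count was 11 and the siNEG-only count 6, and under the other alternatives they lay between 12 and 22 and between 9 and 15.

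The replicate block left the arm difference at 0.7365 percentage points (exact sign-change permutation p = 0.5, the smallest 2 pairs allow) and the difference of arm differences at -3.331 (p = 0.5 in the same exact test). The numbers did not pair the libraries: the difference between replicates 1 and 2 in siNEG correlated with that in siFLI1 over regions at r = 0.01, for H3K27ac and for H3K4me3. The soft-masked share was not computed, because the reference sequence used carries no masking. Depth is unknown, so a missing peak does not show that a mark was absent.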
